A study of Mus musculus with 4 samples.

Results

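The germ cell and meiosis genes Ddx4, Dazl, Stra8, Rhox5, Sycp1, Sycp3, Mael and Tex101 were followed across the samples of the series. They were found through the RefSeq accession of each array probe, and all 8 were present, with 9 probes, among 33378 genes or transcripts. The series holds strain 129 embryonic stem (ES) cells of the line E14 (n = 1), lines 7 and 13 of induced pluripotent stem (iPS) cells (n = 2), and bone marrow mononuclear cells, the nucleated blood-forming and white cells of marrow (BMMNCs, n = 1). The iPS lines were derived from BMMNCs of Oct4-EGFP transgenic C57BL/6 mice, and the BMMNC sample is labelled C57BL/6 with no transgene named. ES and iPS cells grew with leukemia inhibiting factor on irradiated mouse embryo fibroblasts, which were reduced by plating on gelatin before RNA was taken. Total RNA was labelled with Cy3 and each sample was read on 1 single-colour Agilent array. The labels give no age or number of mice, and each iPS line is a single line, so strain, cell origin and reporter cannot be told apart from the iPS label when the lines are set against ES cells.

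Germ cells are the lineage that makes eggs and sperm, and meiosis is the division that leaves them with a single chromosome set. Many of their genes are silenced in body cells by DNA methylation of CpG-rich promoters and, in pluripotent cells, by a Polycomb complex that contains E2F6, MGA and MAX, which read the sequences TCCCGC (E2F6) and CACGTG (the E-box of MGA and MAX). ES cells are known to transcribe several of these genes without being germ cells.

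The starts of the genes are shown first, since both motifs bear on this group. RefSeq (GRCm38.p6) gave a promoter window of 300 bases, 250 before and 50 after the start, for all 8 genes. The 250 bases before the start follow for the 4 genes with an E-box and for Rhox5, which has neither motif, 5′ to 3′ on the gene's strand, with the E2F6 motif (either strand) and the E-box in capitals.
Ddx4, chr13:112652311-112652560, minus strand: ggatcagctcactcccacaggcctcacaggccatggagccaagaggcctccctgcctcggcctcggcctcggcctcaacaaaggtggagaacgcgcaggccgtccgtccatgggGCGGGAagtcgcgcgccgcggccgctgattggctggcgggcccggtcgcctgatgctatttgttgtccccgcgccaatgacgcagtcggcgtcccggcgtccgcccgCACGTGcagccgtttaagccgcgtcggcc
Mael, chr1:166238745-166238994, minus strand: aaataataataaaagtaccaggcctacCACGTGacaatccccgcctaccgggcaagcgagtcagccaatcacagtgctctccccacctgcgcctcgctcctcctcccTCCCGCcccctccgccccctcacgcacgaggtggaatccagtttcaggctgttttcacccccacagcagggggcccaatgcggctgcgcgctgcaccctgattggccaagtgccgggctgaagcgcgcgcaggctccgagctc
Sycp1, chr3:102936101-102936350, minus strand: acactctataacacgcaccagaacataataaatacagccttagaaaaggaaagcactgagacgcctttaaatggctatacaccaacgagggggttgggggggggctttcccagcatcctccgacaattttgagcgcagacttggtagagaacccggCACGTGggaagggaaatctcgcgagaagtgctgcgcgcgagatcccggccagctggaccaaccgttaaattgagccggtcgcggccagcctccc
Sycp3, chr10:88459337-88459586, plus strand: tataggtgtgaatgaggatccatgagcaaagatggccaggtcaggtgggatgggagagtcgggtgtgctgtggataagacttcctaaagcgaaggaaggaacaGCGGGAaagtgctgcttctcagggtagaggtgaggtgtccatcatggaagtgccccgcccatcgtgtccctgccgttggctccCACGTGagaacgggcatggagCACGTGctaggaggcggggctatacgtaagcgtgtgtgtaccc
Rhox5, chrX:37754358-37754607, plus strand: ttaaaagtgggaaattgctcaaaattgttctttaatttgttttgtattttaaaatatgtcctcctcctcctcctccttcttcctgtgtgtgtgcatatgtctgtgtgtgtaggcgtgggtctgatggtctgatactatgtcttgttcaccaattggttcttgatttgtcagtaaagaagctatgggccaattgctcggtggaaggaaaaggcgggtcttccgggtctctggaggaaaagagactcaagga

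In the whole window, CACGTG was present in 4 of the 8 genes (Ddx4, Mael, Sycp1 and Sycp3) and in 7.15% of all 32851 promoter windows. The same 4 genes held TCCCGC on one strand or the other, a motif present in 20.0% of all windows. The only copy in Sycp1 and 1 of 2 in Mael lay after the start, outside the bases shown. Before the start 3 of the 8 genes held it, as did 16.9% of all windows. Sycp3, a structural protein of the meiotic chromosome axis, had 2 E-boxes, beginning 64 and 43 bases before the start. In Ddx4 the single E-box began 29 bases before the start, in Sycp1 94 and in Mael 223. No copy of one motif overlapped a copy of the other. TATAAA, also sought on both strands, was found in none of the 8 windows and in 13.6% of all windows. These counts describe letters in a window and not binding. Both motifs hold a CpG, and their share among windows of like CpG content was not counted.

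The 8 starts differed in CpG content. The ratio of observed to expected CpG was 0.98 in Ddx4, 0.87 in Sycp1, 0.80 in Dazl, 0.78 in Mael, 0.70 in Tex101 and 0.67 in Sycp3, against a median of 0.38 over all windows. Stra8, at 0.43, and Rhox5, at 0.36, lay near that median. Rhox5 held 5 CpGs in its window and Ddx4 held 38.

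**Figure D1:**
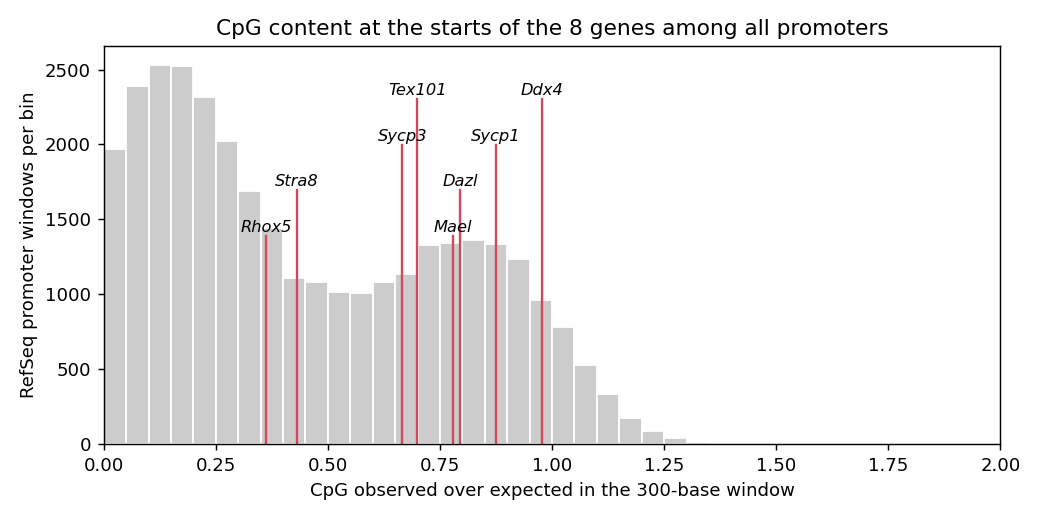
The x axis is the ratio of observed to expected CpG in the 300-base window around each gene start and the y axis the number of RefSeq promoter windows per bin. Grey bars are all 32851 windows and red lines mark the 8 genes, of which Rhox5 (0.36) and Stra8 (0.43) lie lowest and Ddx4 (0.98) highest.

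Levels below are log2 signals minus the 75th percentile of the array, so that 0 marks a probe at that percentile, and a probe counts as well above background by the scanner software's own mark. The 75th percentile of signal was 602 in BMMNCs and between 1048 and 1123 on the other arrays, and 54.6% to 59.0% of probes were well above background per array. No probe was saturated. All 12 pluripotent cell markers looked for were well above background in ES cells and both lines, and all 15 blood cell markers in BMMNCs.

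All 8 germ cell and meiosis genes were well above background on the ES array and on both iPS arrays, as were 51.5% of all genes or transcripts. In BMMNCs 2 of them were, Ddx4 and Stra8. The pattern of the other 6, measured on the 3 pluripotent arrays and not in BMMNCs, was shared by 6.99% of all genes or transcripts. In bulk RNA, fewer cells that express a gene and less RNA per cell cannot be told apart.

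**Figure D2:**
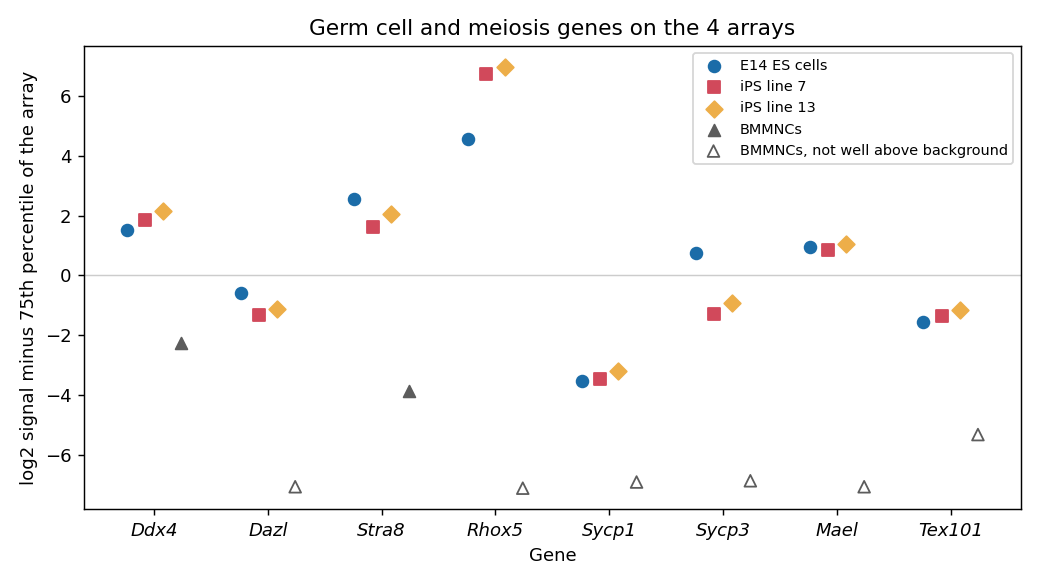
Each point is 1 array, with the log2 signal minus the array's 75th percentile on the y axis and the gene on the x axis. Filled symbols were well above background and open symbols were not. The BMMNC points lie lowest for all 8 genes, and the iPS lines stand above ES cells for Rhox5 and below for Sycp3.

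Ddx4, the Vasa RNA helicase of germ cells, stood at 1.51 (ES), 1.84 (line 7), 2.14 (line 13) and -2.27 (BMMNCs). The 3 pluripotent samples lay within 0.63 of each other and far above the marrow sample. In the iPS lines Ddx4 rose by 4.26 over BMMNCs (SE 0.18, limma adjusted p = 0.00137), and in ES cells by 3.78 (SE 0.21, 13.7-fold, adjusted p = 0.00239). The BMMNC signal was 125.1, against 19.7 for the dimmest probe that the software placed well above background on that array.

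Dazl, an RNA-binding protein that germ cells need for their development, was at -0.59 (ES), -1.32 (line 7), -1.13 (line 13) and -7.07 (BMMNCs), where it was not well above background. For such a gene a fold is given as a lower bound, the mean of the brighter group against the dimmest signal well above background on the dim array, or the gene's own signal if higher. For Dazl the lines exceeded BMMNCs at least 13.0-fold and ES cells did so at least 20.4-fold (limma adjusted p = 0.000784 and 0.00115). A second Dazl probe gave -2.03, -2.75, -2.57 and -7.12 in the same order, and differed between iPS lines and ES cells by -0.63, where the first probe gave -0.64.

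Mael, a germ granule protein of the piRNA pathway that silences transposons, was at 0.96 (ES), 0.86 (line 7), 1.06 (line 13) and -7.07 (BMMNCs). Mael exceeded its BMMNC level at least 59.5-fold in the lines and at least 59.3-fold in ES cells, since BMMNCs were not well above background (limma adjusted p = 0.000713 and 0.0011). The level in ES cells lay between those of the lines.

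Stra8, which retinoic acid induces and which germ cells need to enter meiosis, was at 2.56 (ES), 1.62 (line 7), 2.04 (line 13) and -3.87 (BMMNCs). ES cells were highest, and the marrow sample, though well above background with a signal of 41.2, was lowest. Stra8 rose by 5.70 in the iPS lines (SE 0.24, 51.9-fold, limma adjusted p = 0.00136) and by 6.43 in ES cells (SE 0.27, 86.0-fold, adjusted p = 0.00172).

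The synaptonemal complex joins paired chromosomes in meiosis, and 2 of its proteins are in this group. Sycp1, the transverse filament between the chromosomes, was at -3.53 (ES), -3.48 (line 7), -3.20 (line 13) and -6.91 (BMMNCs). BMMNCs, not well above background, were exceeded at least 3.02-fold by the lines and at least 2.65-fold by ES cells (limma adjusted p = 0.00165 and 0.00261). Sycp3, of the chromosome axis, was at 0.76 (ES), -1.29 (line 7), -0.91 (line 13) and -6.87 (BMMNCs). Both lines lay well below ES cells and far above the marrow sample. With BMMNCs not well above background, Sycp3 was higher by at least 14.3-fold in the lines and by at least 51.9-fold in ES cells (adjusted p = 0.00119 and 0.00134).

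Tex101, a surface glycoprotein of male germ cells, was at -1.55 (ES), -1.35 (line 7), -1.14 (line 13) and -5.32 (BMMNCs). Against BMMNCs, where it was not well above background, the bound was at least 12.9-fold for the lines and at least 10.5-fold for ES cells (limma adjusted p = 0.00108 and 0.00172). Rhox5, an X-linked homeobox gene of the reproductive tract that ES cells also express, was at 4.56 (ES), 6.75 (line 7), 6.97 (line 13) and -7.12 (BMMNCs). With Rhox5 not well above background in BMMNCs, the bounds were at least 3555-fold in the lines and at least 720.5-fold in ES cells (adjusted p = 0.000713 and 0.0011).

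Thus 8 of 8 genes passed the test upward in both comparisons, where 38.0% of 21216 genes tested passed upward in iPS lines against BMMNCs (75.8% in either direction) and 38.8% in ES cells against BMMNCs (34.7% downward, 73.5% in either direction). In each comparison 6 of the 8, all but Ddx4 and Stra8, entered through the arrays on which they are high and were set against BMMNC signals not well above background. Under a filter that asks for signal well above background on all 4 arrays, only Ddx4 and Stra8 could be tested, and both passed upward. Passing was common there. In the iPS lines against BMMNCs 5974 genes passed upward and 6586 downward, and in ES cells 6196 and 6102. Fewer than 17192 genes entered, the number well above background on the ES and both iPS arrays. Both calls thus say little about what sets Ddx4 and Stra8 apart from other genes. With the 6 genes at their lower bounds, the median difference of the 8 was 4.05 in the iPS lines and 5.02 in ES cells. These comparisons share the BMMNC array. Only the pair of lines gives the fit a spread (1 residual degree of freedom), which is taken to hold for the single ES array and the single BMMNC array too. The p-values thus measure the spread between these lines, each read once, and not that between cultures or animals. With another background correction (normexp) the differences from BMMNCs shrank, to between 0.65 (Sycp1) and 10.2 (Rhox5) in the iPS lines and between 0.55 and 7.90 for the same genes in ES cells, and all 8 still passed. The lower bounds hold for the processed signal only: with normexp, which adds an offset to each signal, the difference lay under the bound for all 6 genes in both comparisons.

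Against ES cells, the iPS lines differed gene by gene. Rhox5 was 4.93-fold higher in the lines (log2 difference 2.30, SE 0.15, limma adjusted p = 0.0436) and was the only one of the 8 to pass, where 1.95% of genes tested passed upward, 2.83% downward and 4.77% in all. Its signal was 24706 (ES), 120616 (line 7) and 141144 (line 13), so both lines were higher by far more than the distance between them. The call did not hold with the authors' value table (difference 2.34, adjusted p = 0.055) or without the filter on dim probes (2.30, adjusted p = 0.156), settings in which no gene passed.

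A signal at least 2-fold lower in both lines, with ES cells well above background, was seen in 4.19% of genes tested. Of the 8, only Sycp3 met this rule. It had the next widest gap after Rhox5, a difference of -1.86 (SE 0.22, 3.63-fold, 95% interval -2.58 to -1.15, limma adjusted p = 0.0608), with line 7 at -2.05 and line 13 at -1.67 relative to ES cells. It did not pass. It passed with normexp (-1.67, adjusted p = 0.00332) and with an intensity trend in the variance (-1.86, adjusted p = 2.4e-10). In those settings 5097 and 7708 genes passed in all, against 1013 of 21216 in the main fit.

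Stra8 and Dazl also had lower values in both lines than in ES cells, with differences of -0.73 (SE 0.24, limma adjusted p = 0.176) and -0.64 (SE 0.14, adjusted p = 0.107). Neither passed here, but under normexp Stra8 (adjusted p = 0.0353) and Dazl (adjusted p = 0.0231) did, and under the trend both did (4.03e-05 and 0.00106). Stra8 passed as well among genes well above background on every array (adjusted p = 0.000698). Normexp passed 5097 genes in all, the trend 7708 and that filter 5778, against 1013 in the main fit. For Stra8 the 95% interval ran from -1.52 to 0.06 and for Dazl from -1.09 to -0.19.

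The other 4 genes lay closer to ES cells. The difference was 0.48 for Ddx4 (95% interval -0.11 to 1.08, limma adjusted p = 0.205), 0.30 for Tex101 (-0.16 to 0.76, adjusted p = 0.266), 0.19 for Sycp1 (-0.38 to 0.76, adjusted p = 0.513) and 0.005 for Mael (-0.45 to 0.46, adjusted p = 0.982). Ddx4 passed with the trend (adjusted p = 0.00101) and among genes well above background on every array (0.00539). Of all genes, 7708 and 5778 passed in those settings, against 1013 in the main fit. For Mael the lines fell on opposite sides of ES cells, at -0.09 and 0.10. The scanner software's own error for the probes of the 8 genes was at most 13.1% of the signal on the ES and iPS arrays.

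**Figure D3:**
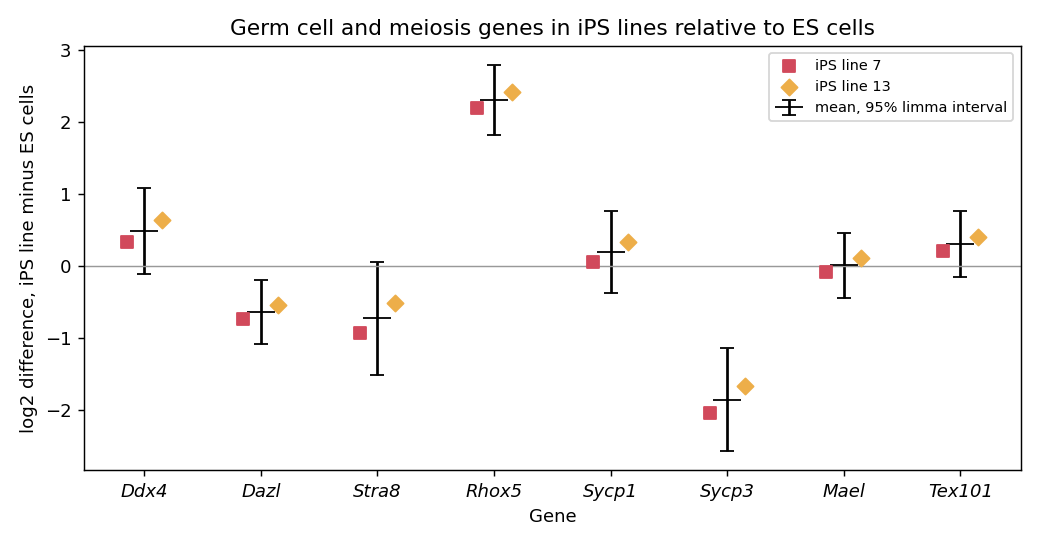
The y axis is the log2 difference of each iPS line from ES cells and the x axis the gene. Coloured points are lines 7 and 13, black bars their mean with the 95% limma interval. Rhox5 lies at 2.30 and Sycp3 at -1.86, and Mael has its points on both sides of 0.

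Between the lines, line 13 had the higher value for all 8 genes, by 0.19 (Dazl) to 0.42 (Stra8) on the log2 scale, while 57.2% of genes tested were higher in that line and the median difference was 0.03. None reached 2-fold, which 1.11% of genes did upward and 1.32% downward. The order was the same under the 5 other settings for scaling, background and probes. Each line is 1 array, so this difference has no test. It is also the only spread against which the other comparisons are judged.

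Genes with the most similar pattern were sought among 11466 others with a symbol that were well above background on the 3 pluripotent arrays, by Euclidean distance over the 4 arrays after centring each gene on its mean and raising BMMNC signals to the dimmest level well above background. Closest to Mael were Notch3 (distance 0.087), Foxd3 (0.096), a factor that keeps ES cells undifferentiated, and Nphs1 (0.12). Closest to Sycp3 were the unnamed gene models Gm10413 (0.29) and Gm3696 (0.33). Tcl1, an ES cell coactivator of the Akt kinase, came next (0.33). Closest to Ddx4 was Syne4 (0.14), to Dazl Fetub (0.16), to Stra8 Cyp2s1 (0.23), to Sycp1 Deptor (0.10) and to Tex101 Edn1 (0.11). Deptor, at -1.45, was well above background in BMMNCs, whereas Sycp1, at -6.91, was not and entered at the raised level. Notch3 beside Mael, and Gm3696 and Tcl1 beside Sycp3, likewise were well above background there. Rhox5 had no such near match. Htra1 was at a distance of 1.23, Tex19.1, another gene of germ and pluripotent cells, at 1.48 and Ccn2 at 1.61.

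Rhox5 belongs to a cluster of X-linked reproductive homeobox genes. Of 15 other cluster genes listed, 5 were on the array by name and 3 were well above background on some array. Rhox6 was at 0.33 (ES), 2.79 (line 7), 2.38 (line 13) and -6.85 (BMMNCs), and Rhox9 at 0.78, 2.88, 2.40 and -6.67. Like Rhox5, both had higher values in both lines than in ES cells, with differences of 2.25 (SE 0.23, limma adjusted p = 0.0543) and 1.86 (SE 0.26, adjusted p = 0.0712) that did not pass. Rhox2a ran the other way, at -2.45 (ES), -5.21 (line 7) and -4.91 (line 13), and fell by 2.61 (SE 0.18, adjusted p = 0.0448). Its line values lay near the dimmest level well above background on those arrays, -5.45 and -5.01. With normexp the difference of Rhox2a was -1.52. Some genes of this cluster are near-copies of each other, and which genes a probe reads was not tested.

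Other germ line groups were read from further lists. Their calls against ES cells, like those of Rhox5 and Rhox2a, were all lost with the authors' table and without a filter, and other losses are given beside the gene. The germ granule and piRNA list had 22 genes, 15 on the array and 11 tested, which means well above background on at least 1 array. Against BMMNCs 8 of these 11 rose in the iPS lines and 2 fell, where 38.0% and 37.8% of all genes tested did. Tex19.1 was at least 1431-fold higher, Tdrd12, a Tudor-domain protein of the pathway, at least 466-fold and Piwil2, a PIWI protein that binds piRNAs, at least 13.6-fold. Tdrd7 fell by 1.73 (SE 0.11, limma adjusted p = 0.00257) and Ddx25 by 1.24 (SE 0.10, adjusted p = 0.00393).

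Against ES cells, where 1.95% of all genes tested passed upward and 2.83% downward, the same list gave 1 risen gene and 4 fallen, and 0 and 2 with the mean of all probes, where Tdrd12, Mov10l1 and Exd1 did not pass. Tdrd6 was at -2.95 in ES cells and not well above background in either line, at least 4.85-fold lower (limma adjusted p = 0.0425). With normexp the difference of Tdrd6 was -1.58 on the log2 scale, a smaller gap than that bound. Fkbp6 fell by 2.02 (SE 0.09), Mov10l1, the helicase of piRNA precursors, by 1.33 (SE 0.10) and Exd1 by 1.23 (SE 0.10), with adjusted p between 0.0425 and 0.0456. Tdrd12 went from 2.83 in ES cells to 3.93 in each line and rose (SE 0.09, adjusted p = 0.0462). The lines thus had higher values for some piRNA genes and lower for others, while Mael had a difference of 0.005.

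Synaptonemal complex and cohesin genes other than Sycp1 and Sycp3 numbered 15 on the list, 9 on the array and 8 tested. In the iPS lines 6 rose over BMMNCs and 1, Sycp2, fell (38.0% and 37.8% of all genes tested). Sycp2 was not well above background in the lines, and Tex12, among the 6, was so in neither lines nor BMMNCs. Smc1b, a meiotic cohesin, was at least 34.5-fold higher. Against ES cells none of the 8 passed, and 7 had lower values. The meiotic cohesin Stag3 was at 2.12 (ES), 0.94 (line 7) and 1.27 (line 13) (difference -1.02, adjusted p = 0.0975). Tex12, of the central element, was at -3.48 in ES cells and not well above background in the lines (adjusted p = 0.0732).

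Among 22 meiotic recombination genes, 13 were on the array and 11 were tested. Of these, 6 rose and 2 fell in the iPS lines against BMMNCs (38.0% and 37.8% of all genes tested). Tex15, which germ cells need for chromosome pairing, was at -2.47 in ES cells and at -0.60 and -0.61 in the lines, a rise of 1.87 over ES cells (SE 0.09, limma adjusted p = 0.0425), the 1 gene of the list to pass there. Dmc1, the meiotic recombinase, was at -2.47, -1.25, -1.04 and -3.47 in ES cells, line 7, line 13 and BMMNCs, and rose over BMMNCs by 2.32 (SE 0.14, adjusted p = 0.00248) but did not pass against ES cells (1.32, adjusted p = 0.0572). Msh5 was not well above background in the lines and was at least 4.89-fold lower there than in BMMNCs. Spo11, the enzyme that cuts DNA to start recombination, was at -4.66 and -4.11 in the lines and -3.20 in BMMNCs, and fell by 1.18 (SE 0.30, adjusted p = 0.0425). The count of 2 fallen genes became 1 with the authors' table, with the mean of all probes and without a filter. It was 0 under the filter on all arrays and 3 with normexp.

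Meiotic entry and retinoic acid genes surround Stra8. Of 15 listed, 12 were on the array and tested. Of these, 9 rose and 2 fell in the iPS lines against BMMNCs (38.0% and 37.8% of all genes tested). In the lines Crabp1, a carrier of retinoic acid, exceeded BMMNCs at least 36.6-fold, and Cyp26b1, an enzyme that degrades it, did so by 17.7-fold or more. Against ES cells 2 rose and 1 fell (1.95% and 2.83% of all genes tested). Cyp26a1, another degrading enzyme, was at -4.17 (ES), -2.17 (line 7) and -2.21 (line 13), and rose by 1.98 (SE 0.09, limma adjusted p = 0.0425). The retinol transporter Stra6 fell by 1.61 (SE 0.15, adjusted p = 0.0489), a call lost with median scaling, quantile normalization and the mean of all probes as well. Rara, a receptor of retinoic acid, was between -4.33 and -3.59 on all 4 arrays.

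Genes that specify primordial germ cells overlap with those of pluripotency. Of 15 listed, 14 were tested. Of these, 11 rose and 2, Kit and Klf2, fell in the iPS lines against BMMNCs (38.0% and 37.8% of all genes tested). The lower bound on the rise was 292-fold for Tfap2c and 249.6-fold for Dppa3. Against ES cells Dppa3 rose by 1.43 (SE 0.09, limma adjusted p = 0.0437) and Tcl1 fell by 1.53 (SE 0.12, adjusted p = 0.0455). Dnd1, which protects germ cell mRNAs, was at 0.85 (ES), -0.54 (line 7) and -0.30 (line 13) (difference -1.27, adjusted p = 0.0637). In the spermatogonial list 11 of 16 genes were tested, and against ES cells Sall4 rose by 1.12 (SE 0.09, adjusted p = 0.0462) and Sohlh2, a factor of germ cell differentiation, fell by 1.75 (SE 0.16, adjusted p = 0.048). With the mean of all probes neither passed, and Sohlh2 also did not with median scaling or quantile normalization.

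**Figure D4:**
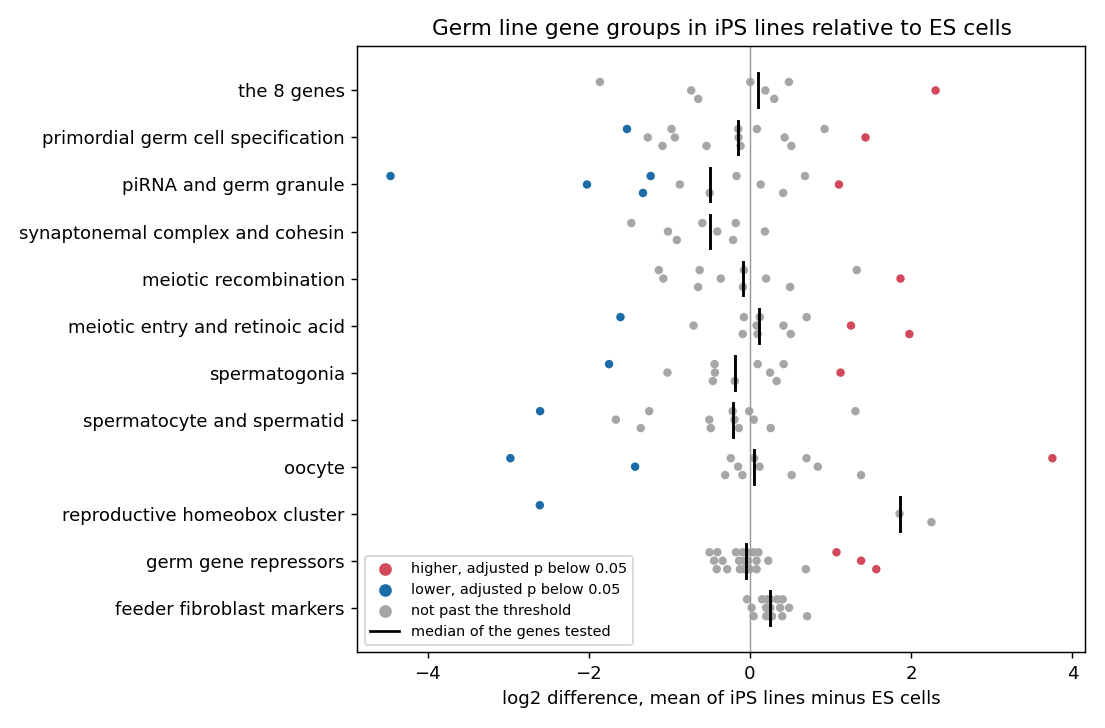
Each point is a gene tested, placed by the log2 difference of the mean of the iPS lines from ES cells on the x axis and by its list on the y axis; black ticks are medians of the genes tested. Rhox5 is the 1 red point among the 8 genes, and the piRNA list holds 4 blue points and 1 red one.

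Genes of the machinery that keeps germ line genes silent were tested in 24 of 25 cases, all well above background on every array. In the iPS lines 16 rose and 6 fell against BMMNCs, where 38.0% and 37.8% of all genes tested did (75.8% in either direction). Pcgf6, a subunit of the E2F6 complex, rose by 2.68 (SE 0.10, limma adjusted p = 0.00115), L3mbtl2 of the same complex by 1.81 (SE 0.10) and Mga by 1.25 (SE 0.11), whereas E2f6 itself was at 2.24, 2.05, 2.07 and 2.27 (ES, line 7, line 13, BMMNCs) and did not pass (adjusted p = 0.141). Max fell by 1.06 (SE 0.09, adjusted p = 0.00455) and Dnmt1, the maintenance DNA methyltransferase, by 0.65 (SE 0.09, adjusted p = 0.013). Against ES cells 3 rose, where 1.95% of all genes tested did. They were the methylation genes Dnmt3b (1.57, SE 0.09, adjusted p = 0.0436) and Dnmt3l (1.07, SE 0.09, adjusted p = 0.0464, lost with the mean of all probes) and the chromatin remodeller Atrx (1.38, SE 0.10, adjusted p = 0.0448).

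Markers of cells other than ES and iPS cells moved with the comparison to BMMNCs. All 18 fibroblast markers, the feeder cell type, were well above background in ES cells and both lines and rose against BMMNCs; their summed level, in multiples of the 75th percentile, was 497 (ES), 544 (line 13) and 590.2 (line 7), against 17.9 in BMMNCs. Against ES cells 17 of the 18 had higher values in the lines, with a median of 0.24 and none past the threshold. Line 7 had the higher fibroblast sum and line 13 the higher value for each of the 8 germ cell genes. The part of feeder cells in the levels of the germ cell genes was not tested. Markers of gonadal support cells were well above background for 9 of 14 on the ES array. On the arrays of lines 7 and 13 it was 10 and 9, and on that of BMMNCs 5. Over all probes the share was 54.6% to 59.0% per array. Amh, Fshr, Lhcgr and Hsd3b1 were so on no array. Of the 10 tested, 6 rose and 2 fell in the lines against BMMNCs (38.0% and 37.8% of all genes tested). In ES cells 6 rose and 2 fell as well (38.8% and 34.7%). With normexp 3 rose in the lines.

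Genes of later male germ cells were detected in part. Over the series 21216 of 33378 genes or transcripts were well above background on at least 1 array. Of 28 spermatocyte and spermatid genes, all on the array, 12 were well above background on the ES array, 13 and 12 on those of lines 7 and 13 and 9 on that of BMMNCs, and 15 on no array, among them Prm2, Acr, Odf1 and Izumo1, which serve the sperm nucleus, acrosome, tail and egg binding. Of the 13 tested, 4 rose and 6 fell in the iPS lines against BMMNCs, where 38.0% and 37.8% of all genes tested did. In ES cells 5 rose and 4 fell (38.8% and 34.7% of all genes tested). Differences from BMMNCs, dim signals included, ran from -1.74 to 3.59 in the lines and from -1.11 to 5.17 in ES cells. Ly6k, the partner of Tex101 on the germ cell surface, was at -3.03 (ES), -4.45 (line 7), -4.11 (line 13) and -2.53 (BMMNCs), and fell against BMMNCs by 1.74 (SE 0.20, limma adjusted p = 0.00794), where Tex101 was at least 12.9-fold higher. Against ES cells Clgn, a chaperone of sperm proteins, fell by 2.60 (SE 0.13, adjusted p = 0.0425) and was the only gene of the list to pass.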

How the data were processed

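RNA of the 4 samples was read on 1 slide in 1 scan, per the file headers. The deposited intensities are processed signals per spot, background-subtracted and detrended within the array by Agilent Feature Extraction 9.5, per the submitters' processing notes (9.5.1.1 per the file headers). In the files, dim spots hold small positive values in that column. The authors' value table holds the same intensities after division by a factor particular to each array; they are linear and uncentred, and the column medians were 139.9 for ES cells, 135.9 for line 7, 133.6 for line 13 and 106.2 for BMMNCs; how the factors were set is unknown, and the direction is that of the signal.

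Control spots and 14 probes with outlier spots were left out. Each processed signal was divided by the 75th percentile of its array's non-control spots and put on the log2 scale, and spots of a probe were averaged. Probe accessions, stripped of versions, were looked up in RefSeq's table for GRCm38.p6, which named 22948 of 41160 probes; the array was designed on another build (mm7), so no gene coordinates are given except for the RefSeq promoter windows. A gene took its probe with the highest mean signal. The 21216 genes well above background on at least 1 array (at least a share of 0.5 of the spots) were fitted with limma 3.58.1 in R 4.3.3, with 1 mean per group, and p-values adjusted by Benjamini-Hochberg with a threshold of 0.05. The fit was tested on simulated data.

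The members and lists were chosen with earlier results of these data known. All 8 members are named, and from each list mainly called genes with the largest differences and genes 2-fold apart from ES cells; others complete a count or a pathway, a choice made after seeing their values. The values of 1 list gene are not reported here. The files hold no mean spot signal, so normexp (offset 50) used the spot and background medians. Other settings were median scaling, quantile normalization, the authors' table, no filter or a filter on all arrays, the mean of all probes, an intensity trend, and ES and iPS arrays as 1 group. The number of arrays limits the precision.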

Additional observations from a re-analysis of the deposited data

How the results depend on the processing

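All 8 genes stood above BMMNCs in iPS lines and in ES cells under each setting that could test them. Among genes well above background on all arrays only Ddx4 and Stra8 could enter, so the count there was 2 in both comparisons. Against ES cells, where 1 of 8 was higher and 0 lower, normexp gave 3 lower (Dazl, Stra8 and Sycp3), the filter on all arrays, which kept Ddx4 and Stra8, 1 higher (Ddx4) and 1 lower (Stra8), and the intensity trend 2 higher (Ddx4 and Rhox5) and 3 lower. The authors' table and the absence of a filter gave 0 higher, and no gene of the whole array passed there, with 6634 and 4719 at an unadjusted p under 0.05. Over all genes 1013 passed against ES cells, and 5097 with normexp, 5778 above background on all arrays, 7708 with the trend and 615 with the mean of all probes. The split against BMMNCs moved with scaling, from 8054 higher and 8028 lower to 7043 and 9231 with median scaling, where the median of all genes was -0.22, and 7383 and 9987 with normexp, where it was -0.20; with the authors' table the median was 0.12. Mael against ES cells turned from 0.005 to -0.034 with normexp, and ran from -0.093 to 0.103 when either line was left out. Leaving out a line leaves no residual degree of freedom, so it gave values with no test; each other gene kept its direction. Of 476 counts over the other lists, 76 fell and 56 rose by more than 1.5 times; the causes were not tested. No paired analysis was possible because the labels number the iPS lines only, and the single ES and BMMNC samples carry a number that is merely a name. Depth on an array is signal over background, which bounds the 6 genes that were dim in BMMNCs.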

Other observations

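Oocyte genes showed both directions. Of 20 listed, 19 were on the array and 13 tested. In the iPS lines 11 rose and 2, Oosp1 and H1f8, fell against BMMNCs (limma), where 38.0% and 37.8% of all genes tested did. With normexp 6 rose, and under the filter on all arrays 5. Ooep, a protein of the egg's subcortical complex, was at 3.24 (ES), 3.20 (line 7) and 3.37 (line 13) and higher than in BMMNCs by at least 298-fold in the lines, while Khdc3 of the same complex was at 2.87 in ES cells and at 1.36 and 1.54 in the lines, and fell by 1.43 (SE 0.13, adjusted p = 0.0488, lost with median scaling, quantile normalization and the mean of all probes). Nlrp4f and Nlrp14, of a family of oocyte NLR proteins, moved apart: Nlrp4f was at -2.84 in ES cells and at 0.81 and 1.03 in the lines, a rise of 3.75 (SE 0.15, adjusted p = 0.0425), and Nlrp14 at -2.08, -4.95 and -5.16, a fall that passed (adjusted p = 0.0425) with line 13 not well above background, so that its size is not given. The calls against ES cells in this list were lost with the authors' table and without a filter. Zp2, Bmp15, Figla, Lhx8, Nlrp5 and Mos were well above background on no array, whereas Zp3, a coat protein of the egg, was at -1.58, -0.70 and -0.79 and not well above background in BMMNCs.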
